A study of Capra hircus with 6 samples.

Results

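Genes of antioxidant defence, glutathione metabolism and the NRF2 response were followed in knockdown lines of the goat (Capra hircus) cell line mGSCs-I-SB. A list of 41 gene symbols was looked up by name in the deposited table. It yielded 37 genes out of 33229 entries, and 36 of them had enough reads to be tested. GSTP1, GSTO1, TALDO1 and CBR1 were not analysed here, and MGST2, a microsomal glutathione transferase, was not tested because it had 1, 2 and 0 counts over the libraries of shUCHL1, shHSPA8 and shCON. These genes are called the members here. They were matched by symbol, with no threshold on measured values.

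The study sequenced messenger RNA from 6 libraries, 2 of each of 3 lines derived from mGSCs-I-SB, which the labels describe as spermatogonial stem cells. Cells of shUCHL1 carried short hairpin RNA against UCHL1, a ubiquitin C-terminal hydrolase, and cells of shHSPA8 carried it against HSPA8, the constitutive HSP70 chaperone. Cells of shCON carried control short hairpin RNA and have the genotype label WT, and all 3 lines grew in the same serum-containing medium. The series title sets UCHL1 against HSPA8, and the question followed here is how each knockdown moved the antioxidant genes and whether the knockdowns differed. Nothing in the labels gives the number of hairpins or clones behind a line, or says that its 2 libraries came from different cultures. The p-values thus cover the spread between library pairs and no more, and that spread could be purely technical. The main fit shared 1 estimate of it over all 3 lines, so a comparison of 2 lines also leans on the third. The pairs were not equally noisy. Their chi-square per degree of freedom between replicates was 2.39 in shUCHL1, 12.1 in shHSPA8 and 22.8 in shCON.

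NRF2, encoded by NFE2L2, is a transcription factor that the adaptor KEAP1 holds at a low protein level by sending it for degradation. Oxidants and electrophiles block KEAP1, and NRF2 then switches on genes for glutathione synthesis, thioredoxin reduction, heme and iron handling, NADPH supply and detoxification. Glutathione and thioredoxin pass electrons from NADPH to peroxidases and peroxiredoxins, which remove peroxides, while superoxide dismutases and catalase act without them. Much of this control acts on proteins, which were not measured here.

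Total counts were 15710532 to 16417274 per library. Levels per library are given in CPM, counts made comparable between libraries by TMM scaling. UCHL1 stood at 94.3 and 97.7 CPM in shUCHL1, 386 and 334 CPM in shHSPA8, and 405 and 451 CPM in shCON, so the line named for it had the lowest level (log2 fold change -2.16, edgeR adjusted p = 0.000113). HSPA8 stood at 5252 and 5344 CPM in shUCHL1, 2631 and 2528 CPM in shHSPA8, and 4016 and 4112 CPM in shCON, and it was likewise lowest in its own line (log2 fold change -0.66, edgeR adjusted p = 0.00126) and higher in shUCHL1 than in shCON (log2 fold change 0.38, edgeR adjusted p = 0.0129), a call that was lost without either shUCHL1 library (edgeR adjusted p 0.15 to 0.175). Of 18 listed markers of spermatogonial stem cells and progenitors 11 carried values, and their summed level was 2995 to 3046 CPM in shUCHL1, 3664 to 4019 CPM in shHSPA8 and 4482 to 5485 CPM in shCON, most of it ITGB1, which other cells also express. The sum includes UCHL1, the hairpin target, and single markers did not all follow it. THY1 was lowest in shUCHL1, at 61.5 and 65.8 CPM, with 148 and 135 CPM in shHSPA8 and 140 and 169 CPM in shCON. ID4 was lowest in shCON, at 1.96 and 3.31 CPM, with 5.80 and 6.36 CPM in shUCHL1 and 10.2 and 8.79 CPM in shHSPA8. RET and DDX4, at most 1.53 and 1.95 CPM, were highest in shUCHL1. GFRA1, a defining receptor of these stem cells, lay between 0.18 and 1.08 CPM, and 7 further markers, among them ZBTB16 and NANOS2, carried no values and were not analysed here. All 8 markers of peritubular myoid cells and fibroblasts were read, with a summed level of 10679 to 11358 CPM in shUCHL1, 11898 to 12893 CPM in shHSPA8 and 9885 to 11449 CPM in shCON. Most of that sum was COL1A1, and single markers moved apart. ACTA2, smooth muscle actin, stood at 534 and 567 CPM in shUCHL1, 1324 and 1150.4 CPM in shHSPA8, and 1476 and 1805 CPM in shCON. CNN1 and DES, also of contractile cells, were lowest in shUCHL1 too, with CNN1 at 0.6 to 1.1 CPM in shUCHL1, 16.4 to 20.9 CPM in shHSPA8 and 10.8 to 14.3 CPM in shCON. MYH11, a further contractile marker at low level, did not follow them. It stood at 2.38 and 2.58 CPM in shUCHL1, 1.64 and 3.23 CPM in shHSPA8, and 2.22 and 1.59 CPM in shCON. DCN, a matrix proteoglycan, stood at 907 and 947 CPM in shUCHL1, 844 and 802 CPM in shHSPA8, and 449 and 434 CPM in shCON. The 6 Sertoli cell markers with values summed to 134 to 135 CPM in shUCHL1, 90.4 to 91.5 CPM in shHSPA8 and 179 to 187 CPM in shCON, mostly SOX9 and GATA4, with AMH no higher than 1.26 CPM and CLDN11 and INHA lower still. The 3 Leydig cell markers summed to 8.55 to 10.3 CPM in shUCHL1, 5.11 to 6.38 CPM in shHSPA8 and 2.79 to 3.61 CPM in shCON, with CYP17A1 at 0 in all 4 knockdown libraries. The 4 macrophage markers with values summed to 48.0 to 55.8 CPM in shUCHL1, 60.7 to 67.0 CPM in shHSPA8 and 37.4 to 41.8 CPM in shCON, mostly CD14, with PTPRC at or near 0. The 5 endothelial markers summed to 3.78 to 5.01 CPM in shUCHL1, 3.98 to 4.01 CPM in shHSPA8 and 2.72 to 3.06 CPM in shCON. The part of these markers in the results on antioxidant genes was not tested. In bulk RNA, fewer cells that express a gene and less of its RNA per cell cannot be told apart.

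Compared per transcript length, the peroxide and iron genes were the most abundant members. PRDX1, a cytosolic peroxiredoxin, averaged 3265 ± 110.2 FPKM in shUCHL1, 2518 ± 211 FPKM in shHSPA8 and 2787 ± 108 FPKM in shCON (SD, n = 2 each), which placed it at rank 3 of all genes. FTL, the light chain of the iron store ferritin, averaged 3150.2 ± 54.2 FPKM in shUCHL1, 1888 ± 144 FPKM in shHSPA8 and 2557 ± 274 FPKM in shCON, at rank 7. FTH1, the ferritin heavy chain, and TXN, thioredoxin itself, followed at ranks 34 and 87. At the other end, EPHX1, an epoxide hydrolase, averaged 1.47 ± 0.361 FPKM in shUCHL1, 1.45 ± 0.0141 FPKM in shHSPA8 and 0.69 ± 0.0707 FPKM in shCON. The secreted peroxidase GPX3 and GCLC, which holds the catalytic site of glutathione synthesis, were also among the lowest. FPKM here is the authors' read level per kilobase of transcript, scaled to library size. The length implied for SOD1 was 0.181 kb, the shortest of the members, so its FPKM leans on a short gene model. Several of these genes, ferritins, thioredoxin and peroxiredoxins among them, have near-identical copies in mammalian genomes, and how the authors assigned reads shared between copies is not given in the sources used here, so their values are uncertain to that extent. Only FTL had counts with a decimal part.

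**Figure D1:**
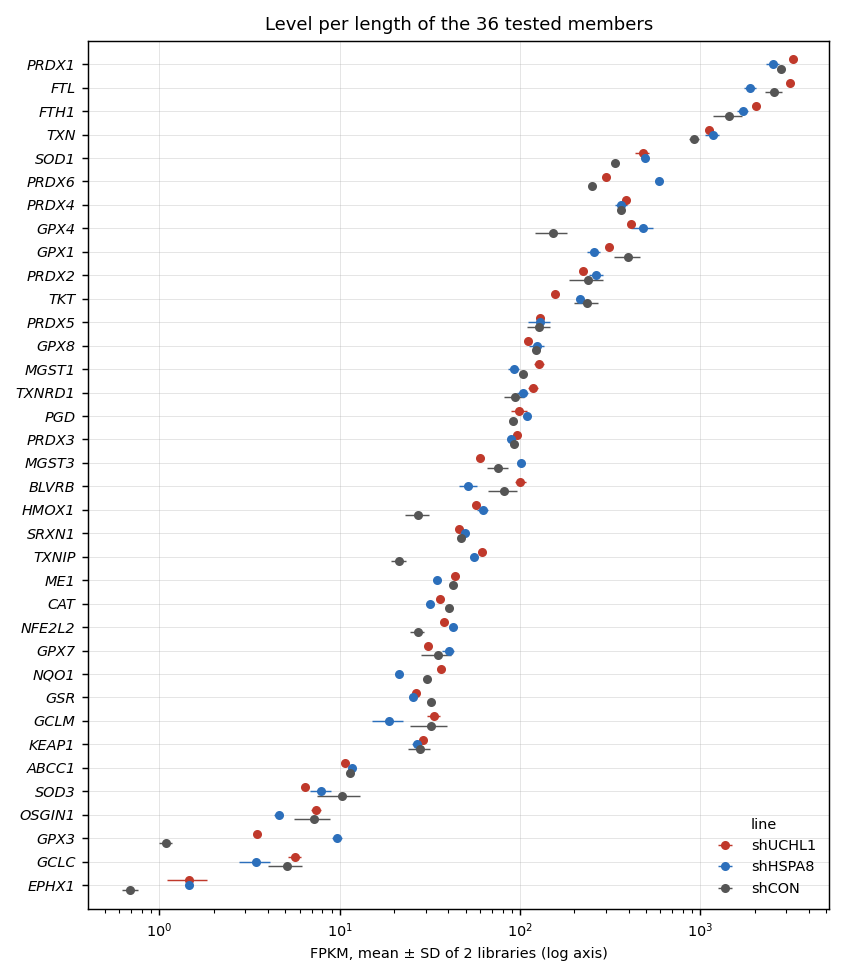
FPKM of the 36 tested members, on a log axis, as mean ± SD of 2 libraries in shUCHL1 (red), shHSPA8 (blue) and shCON (grey), sorted by the mean over all 6 libraries. PRDX1 and FTL stand at the top and EPHX1 at the bottom, and GPX3 is the member whose lines lie farthest apart.

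Members moved in both directions in each line. In shUCHL1, 11 of the 36 tested members were called changed against shCON, 7 higher and 4 lower. This is 30.6% of the members, where 15.7% of all 12665 tested genes were called (8.54% higher and 7.15% lower). A gene is called when the p of edgeR's quasi-likelihood test, adjusted over all tested genes by the Benjamini-Hochberg method, is under 0.05. In shHSPA8, 13 of 36 were called against shCON, 8 higher and 5 lower, or 36.1% of the members against 14.7% of all genes (8.66% higher and 6.02% lower). Between the knockdown lines, 9 of 36 differed, 5 of them higher and 4 lower in shUCHL1 than in shHSPA8, or 25.0% against 14.6% of all genes (6.2% higher and 8.35% lower). The members were picked with earlier results of these data known, so these shares are descriptions. The median log2 fold change of the members was 0.0375 in shUCHL1 against shCON, 0.0153 in shHSPA8 against shCON and -0.0126 in shUCHL1 against shHSPA8, and the medians of all tested genes were 0.00939, -0.00317 and 0.0175, so the list as a whole had a middle near 0 in each comparison.

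By gene, 18 members were called in at least 1 comparison and 18 in none. NFE2L2, GPX3, GPX4, TXNIP, SOD1, HMOX1 and EPHX1 were called in both knockdown lines, and all 7 were higher in both. The 2 comparisons use the same shCON libraries and are not independent. Of these 7, GPX3 also differed between the knockdown lines, and the other 6 were not called there. Against shCON, GSR, MGST3, SOD3 and TKT were called in shUCHL1 and not in shHSPA8, and of these MGST3 and TKT also differed between the knockdown lines. GCLM, GPX1, PRDX6, BLVRB, FTL and NQO1 were called in shHSPA8 and not in shUCHL1, and of these GCLM, PRDX6, BLVRB, FTL and NQO1 also differed between the knockdown lines. At an unadjusted p under 0.05 there were 16 members for shUCHL1, 20 for shHSPA8 and 17 between the knockdown lines.

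**Figure D2:**
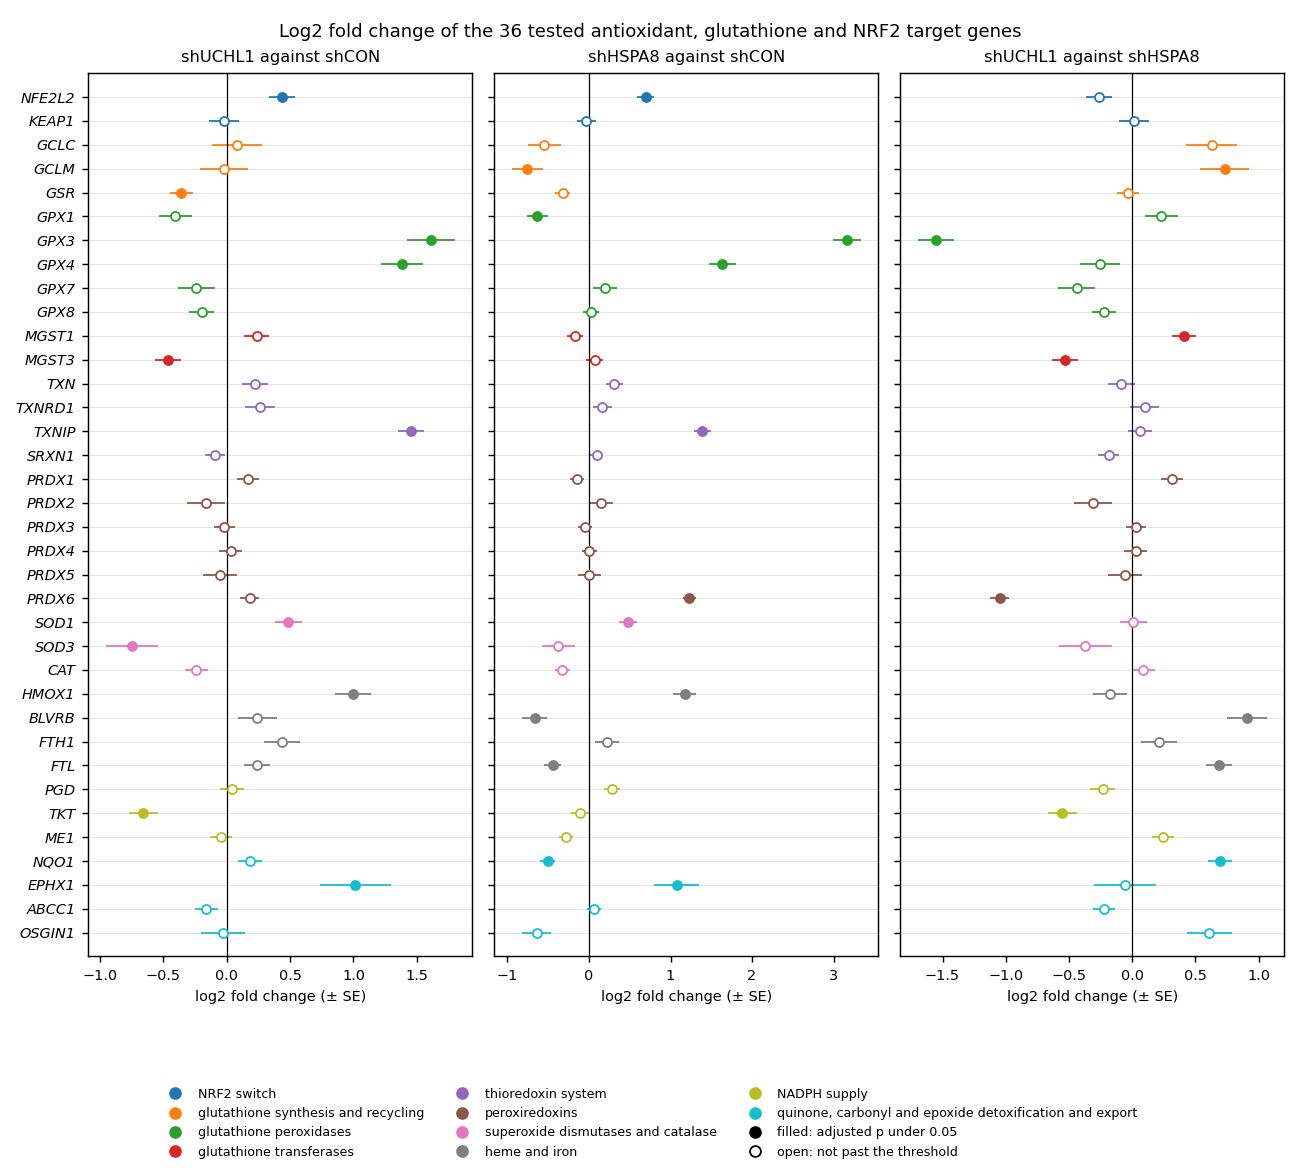
Log2 fold change ± SE of each tested member in shUCHL1 against shCON, shHSPA8 against shCON and shUCHL1 against shHSPA8, coloured by role, with filled points where the adjusted p is under 0.05. The horizontal axes differ in range between panels. GPX3, GPX4, TXNIP and HMOX1 lie to the right in both comparisons with shCON, and PRDX6 and GPX3 lie to the left in the comparison of the knockdown lines.

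The transcript of NRF2 itself was higher in both knockdown lines. NFE2L2 (gene ID 102176737) stood at 83.2 and 81.9 CPM in shUCHL1, 94.6 and 103 CPM in shHSPA8, and 65.3 and 56.8 CPM in shCON. All 4 knockdown libraries lay above both shCON libraries, and shHSPA8 lay above shUCHL1. The rise was 1.35-fold in shUCHL1 (log2 fold change 0.44, SE 0.10, edgeR adjusted p = 0.033) and 1.62-fold in shHSPA8 (log2 fold change 0.70, SE 0.10, edgeR adjusted p = 0.00534). The knockdown lines were not called different (a log2 fold change of -0.26, SE 0.10, edgeR adjusted p = 0.138). KEAP1, its inhibitor, stood at 71.7 and 75 CPM in shUCHL1, 75.6 and 69.9 CPM in shHSPA8, and 67.2 and 81.7 CPM in shCON, with overlapping groups and adjusted p-values of 0.927, 0.884 and 0.961 in shUCHL1 against shCON, shHSPA8 against shCON and shUCHL1 against shHSPA8. The NFE2L2 call in shUCHL1 was lost without either shUCHL1 library, either shHSPA8 library or shCON replicate 2 (edgeR adjusted p 0.0536 to 0.243), while the call in shHSPA8 was kept in every one of those fits.

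Glutathione is made in a pair of steps, the first by the enzyme built from GCLC, its catalytic subunit, and GCLM, its modifier subunit, and GSR returns oxidised glutathione to its reduced form with NADPH. GCLM (gene ID 102186174) stood at 140.1 and 125 CPM in shUCHL1, 68.5 and 91.4 CPM in shHSPA8, and 157 and 112 CPM in shCON. Both shHSPA8 libraries lay below all 4 others, but the shCON libraries spanned more than the shUCHL1 ones. GCLM fell 1.69-fold in shHSPA8 against shCON (log2 fold change -0.75, SE 0.19, edgeR adjusted p = 0.042), stood 1.66-fold higher in shUCHL1 than in shHSPA8 (a log2 fold change of 0.73, SE 0.19, edgeR adjusted p = 0.0465). Against shCON it was not called in shUCHL1 (log2 fold change -0.02, edgeR adjusted p = 0.961). GCLC stood at 17.8 and 20.1 CPM in shUCHL1, 10.5 and 14 CPM in shHSPA8, and 20.8 and 15.1 CPM in shCON, also lowest in both shHSPA8 libraries, but it was not called in shHSPA8 against shCON (log2 fold change -0.55, edgeR adjusted p = 0.123) or between the knockdown lines (a log2 fold change of 0.63, edgeR adjusted p = 0.0815). GSR had another pattern, at 70.7 and 71.7 CPM in shUCHL1, 72.3 and 73.6 CPM in shHSPA8, and 94.8 and 87.8 CPM in shCON, where all 4 knockdown libraries lay below shCON. It fell 1.28-fold in shUCHL1 (log2 fold change -0.36, SE 0.09, edgeR adjusted p = 0.0368) and missed the threshold in shHSPA8 (log2 fold change -0.32, SE 0.09, edgeR adjusted p = 0.053). The knockdown lines did not differ by the test (a log2 fold change of -0.03, edgeR adjusted p = 0.828). Calls of GCLM were lost in shHSPA8 against shCON without either shUCHL1 library, shHSPA8 replicate 1 or shCON replicate 1 (edgeR adjusted p 0.0706 to 0.186). Between the knockdown lines they were lost without either shUCHL1 library or either shHSPA8 library (edgeR adjusted p 0.0508 to 0.247). The GSR call was lost without either shUCHL1 library or either shHSPA8 library (edgeR adjusted p 0.0694 to 0.283).

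The glutathione peroxidases held the largest changes and split by gene. GPX3 (gene ID 102189207), a secreted enzyme that removes peroxides outside the cell, stood at 4.46 and 4.32 CPM in shUCHL1, 13.4 and 12.3 CPM in shHSPA8, and 1.52 and 1.35 CPM in shCON. The 3 lines did not overlap, with shHSPA8 highest and shCON lowest. GPX3 rose 3.05-fold in the shUCHL1 line (log2 fold change 1.61, SE 0.19, edgeR adjusted p = 0.00225) and 8.95-fold in shHSPA8 (log2 fold change 3.16, SE 0.17, edgeR adjusted p = 7.77e-05), and it stood 2.93-fold lower in shUCHL1 than in shHSPA8 (a log2 fold change of -1.55, SE 0.14, edgeR adjusted p = 0.00136). Its counts were 145, 403 and 46 over the libraries of shUCHL1, shHSPA8 and shCON, so it rests on few reads. GPX4 (gene ID 100860867), which reduces lipid peroxides in membranes and is the enzyme that holds back ferroptosis, stood at 203 and 214 CPM in shUCHL1, 271 and 226 CPM in shHSPA8, and 67.1 and 92.9 CPM in shCON. All 4 knockdown libraries lay far above shCON, and the shHSPA8 libraries lay above the shUCHL1 ones. GPX4 rose 2.60-fold in the shUCHL1 line (log2 fold change 1.38, SE 0.16, edgeR adjusted p = 0.0023) and 3.10-fold in shHSPA8 (log2 fold change 1.63, SE 0.17, edgeR adjusted p = 0.000935), with no call between the knockdown lines (a log2 fold change of -0.25, edgeR adjusted p = 0.33). Both genes kept every one of these calls when each library was left out in turn.

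GPX1, a cytosolic peroxidase, was lower in the knockdown lines, at 189 and 194 CPM in shUCHL1, 172 and 154 CPM in shHSPA8, and 221 and 285 CPM in shCON. All 4 knockdown libraries lay below shCON, shHSPA8 the lowest. GPX1 fell 1.55-fold in shHSPA8 (log2 fold change -0.63, SE 0.13, edgeR adjusted p = 0.0198) and was not called in shUCHL1 (log2 fold change -0.40, SE 0.13, edgeR adjusted p = 0.0832) or between the knockdown lines (a log2 fold change of 0.23, edgeR adjusted p = 0.283). The call in shHSPA8 was lost without either shUCHL1 library or either shHSPA8 library (edgeR adjusted p 0.0507 to 0.109). GPX7 and GPX8, peroxidases of the endoplasmic reticulum, were called in none of the comparisons, with adjusted p-values of 0.335 and 0.235 in shUCHL1 against shCON, 0.417 and 0.893 in shHSPA8 against shCON, and 0.0887 and 0.17 between the knockdown lines. Of the 5 peroxidases tested, 2 were thus higher in shUCHL1, and 2 were higher and 1 lower in shHSPA8. Of all tested genes, 15.7% were called in shUCHL1 and 14.7% in shHSPA8. The groups by role hold too few genes for their counts to be set against these shares.

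The microsomal glutathione transferases, membrane enzymes that join glutathione to lipophilic molecules, differed mainly between the knockdown lines. MGST1 stood at 97 and 107 CPM in shUCHL1, 79.8 and 73.5 CPM in shHSPA8, and 87.3 and 85.6 CPM in shCON, highest in both shUCHL1 libraries and lowest in both shHSPA8 libraries. It was called only between the knockdown lines, 1.33-fold higher in shUCHL1 than in shHSPA8 (a log2 fold change of 0.41, SE 0.10, edgeR adjusted p = 0.0328). MGST3 stood at 36.5 and 36 CPM in shUCHL1, 54.4 and 50.2 CPM in shHSPA8, and 47.3 and 52.5 CPM in shCON, and both shUCHL1 libraries lay below the other 4, which overlapped. It fell 1.38-fold in shUCHL1 against shCON (log2 fold change -0.46, SE 0.10, edgeR adjusted p = 0.0248) and stood 1.44-fold lower in shUCHL1 than in shHSPA8 (a log2 fold change of -0.53, SE 0.10, edgeR adjusted p = 0.0173). The MGST1 call was lost without either shUCHL1 library or either shHSPA8 library (edgeR adjusted p 0.11 to 0.294). The MGST3 calls were lost in shUCHL1 against shCON without either shUCHL1 library or shCON replicate 2 (edgeR adjusted p 0.056 to 0.194) and between the knockdown lines without either shUCHL1 library or either shHSPA8 library (edgeR adjusted p 0.0543 to 0.174).

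In the thioredoxin system, 1 of 4 members was called changed, and it was the inhibitor. TXNIP (gene ID 102183379), which binds thioredoxin and blocks it and also limits glucose uptake, stood at 154 and 154 CPM in shUCHL1, 144 and 151 CPM in shHSPA8, and 60.3 and 52.3 CPM in shCON. The 4 knockdown libraries lay close together, far above shCON. TXNIP rose 2.74-fold in the shUCHL1 line (log2 fold change 1.45, SE 0.10, edgeR adjusted p = 0.000309) and 2.62-fold in shHSPA8 (log2 fold change 1.39, SE 0.10, edgeR adjusted p = 0.000248). The knockdown lines were not called different (a log2 fold change of 0.06, SE 0.10, edgeR adjusted p = 0.713), and both rises held without any single library. TXN, the thioredoxin that TXNIP binds, stood at 401 and 424 CPM in shUCHL1, 463 and 412 CPM in shHSPA8, and 327 and 379 CPM in shCON, with all 4 knockdown libraries above shCON but no call (log2 fold change 0.22, edgeR adjusted p = 0.207 in shUCHL1, and log2 fold change 0.31, edgeR adjusted p = 0.0958 in shHSPA8). TXNRD1, the reductase that recharges thioredoxin and a textbook NRF2 target, stood at 390.1 and 356 CPM in shUCHL1, 329 and 367 CPM in shHSPA8, and 340.1 and 282 CPM in shCON. Neighbouring lines overlapped, and no comparison was called (edgeR adjusted p = 0.182 in shUCHL1, 0.404 in shHSPA8 and 0.601 for shUCHL1 against shHSPA8). SRXN1, which repairs overoxidised peroxiredoxins, was not called either, at 111 and 111 CPM in shUCHL1, 125 and 127 CPM in shHSPA8, and 119 and 118 CPM in shCON.

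Among the 6 peroxiredoxins, which remove hydrogen peroxide with electrons mostly from thioredoxin, PRDX6 alone was called, and only where shHSPA8 was compared. PRDX6 (gene ID 102175786), which draws on glutathione instead, stood at 453 and 469 CPM in shUCHL1, 978 and 930.1 CPM in shHSPA8, and 399 and 413 CPM in shCON. Both shHSPA8 libraries were far above the other 4, and shUCHL1 lay slightly above shCON. It rose 2.35-fold in shHSPA8 (log2 fold change 1.23, SE 0.08, edgeR adjusted p = 0.000141), stood 2.07-fold lower in shUCHL1 than in shHSPA8 (a log2 fold change of -1.05, SE 0.08, edgeR adjusted p = 0.000548). It was not called in shUCHL1 against shCON (log2 fold change 0.18, SE 0.08, edgeR adjusted p = 0.162). Both calls held without any single library. PRDX1, the most abundant member, stood at 2209.9 and 2306 CPM in shUCHL1, 1909 and 1718 CPM in shHSPA8, and 1937 and 2089 CPM in shCON, highest in shUCHL1, with an adjusted p of 0.0515 in edgeR between the knockdown lines, just outside the threshold. PRDX2, PRDX3, PRDX4 and PRDX5 had log2 fold changes between -0.31 and 0.15 over the 3 comparisons, and PRDX3, the mitochondrial form, was close to level, at 122 and 124 CPM in shUCHL1, 122 and 119.9 CPM in shHSPA8, and 124 and 126 CPM in shCON.

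The enzymes that act directly on superoxide and hydrogen peroxide did not move as a group. SOD1, the cytosolic superoxide dismutase, stood at 94.3 and 81.4 CPM in shUCHL1, 88 and 86.6 CPM in shHSPA8, and 59.6 and 65.8 CPM in shCON, with all 4 knockdown libraries above shCON. It rose 1.40-fold in the shUCHL1 line (log2 fold change 0.49, SE 0.11, edgeR adjusted p = 0.0247) and 1.39-fold in shHSPA8 (log2 fold change 0.48, SE 0.11, edgeR adjusted p = 0.0276). SOD3, the extracellular form, stood at 9.16 and 9.59 CPM in shUCHL1, 13.2 and 11.1 CPM in shHSPA8, and 12.7 and 18.8 CPM in shCON, lowest in shUCHL1. It fell 1.68-fold there (log2 fold change -0.75, SE 0.20, edgeR adjusted p = 0.0491), while shHSPA8 was not called (log2 fold change -0.38, edgeR adjusted p = 0.269). CAT, catalase of the peroxisome, stood at 70.7 and 69.8 CPM in shUCHL1, 63.5 and 68.7 CPM in shHSPA8, and 85 and 81.1 CPM in shCON. All 4 knockdown libraries lay below shCON, but neither line was called (edgeR adjusted p = 0.129 in shUCHL1 and 0.0545 in shHSPA8). The SOD1 call was lost in shUCHL1 without either shUCHL1 library or shCON replicate 1 (edgeR adjusted p 0.0551 to 0.284) and in shHSPA8 without either shUCHL1 library, either shHSPA8 library or shCON replicate 1 (edgeR adjusted p 0.0679 to 0.122). The SOD3 call was lost without either shUCHL1 library, either shHSPA8 library or shCON replicate 2 (edgeR adjusted p 0.058 to 0.248).

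Of the 4 heme and iron genes, heme oxygenase was called higher in both knockdown lines and the other 3 were called higher in neither. In shUCHL1 against shCON all 4 log2 fold changes were positive, from 0.238 to 0.997. HMOX1 (gene ID 100860951), heme oxygenase, opens the heme ring, releases iron and is a classic NRF2 target. It stood at 31.6 and 33.1 CPM in shUCHL1, 38.3 and 35 CPM in shHSPA8, and 14.2 and 18.2 CPM in shCON, with all 4 knockdown libraries well above shCON and the shUCHL1 libraries below the shHSPA8 ones. HMOX1 rose 2.00-fold in the shUCHL1 line (log2 fold change 1.00, SE 0.14, edgeR adjusted p = 0.00437) and 2.26-fold in shHSPA8 (log2 fold change 1.18, SE 0.14, edgeR adjusted p = 0.00193), with no call between the knockdown lines (a log2 fold change of -0.18, edgeR adjusted p = 0.412). The rise in shUCHL1 was lost without shUCHL1 replicate 2 (edgeR adjusted p 0.0508), and that in shHSPA8 was kept without each library in turn.

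BLVRB, which reduces biliverdin and flavins, stood at 51.3 and 56.2 CPM in shUCHL1, 30.7 and 26.5 CPM in shHSPA8, and 39 and 51.8 CPM in shCON. Both shHSPA8 libraries lay below the other 4. It fell 1.59-fold in shHSPA8 (log2 fold change -0.67, SE 0.16, edgeR adjusted p = 0.032), stood 1.88-fold higher in shUCHL1 than in shHSPA8 (a log2 fold change of 0.91, SE 0.16, edgeR adjusted p = 0.0116). It was not called in shUCHL1 against shCON (log2 fold change 0.24, edgeR adjusted p = 0.353). FTL followed the same order of lines, at 1969 and 2006 CPM in shUCHL1, 1296 and 1178 CPM in shHSPA8, and 1537 and 1833 CPM in shCON, with shUCHL1 highest and shHSPA8 lowest and no overlap. It fell 1.36-fold in shHSPA8 (log2 fold change -0.45, SE 0.10, edgeR adjusted p = 0.0297) and stood 1.61-fold higher in shUCHL1 than in shHSPA8 (a log2 fold change of 0.68, SE 0.10, edgeR adjusted p = 0.00709). FTH1, whose protein oxidises iron for storage in the same ferritin shell, stood at 765 and 813 CPM in shUCHL1, 711 and 649.9 CPM in shHSPA8, and 494 and 674 CPM in shCON. Libraries of shHSPA8 and shCON overlapped, and nothing was called (edgeR adjusted p = 0.0875 in shUCHL1, 0.362 in shHSPA8 and 0.357 for shUCHL1 against shHSPA8). The BLVRB calls were lost in shHSPA8 against shCON without either shUCHL1 library, either shHSPA8 library or shCON replicate 2 (edgeR adjusted p 0.0537 to 0.155) and between the knockdown lines without either shUCHL1 library or shHSPA8 replicate 2 (edgeR adjusted p 0.0641 to 0.101). Those of FTL were lost in shHSPA8 against shCON without either shUCHL1 library or either shHSPA8 library (edgeR adjusted p 0.0686 to 0.151) and between the knockdown lines without either shUCHL1 library (edgeR adjusted p 0.0765 to 0.0801).

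Of the 3 members grouped under NADPH supply, only TKT was called changed, and its enzyme does not itself make NADPH. TKT, transketolase, which links the pentose phosphate pathway to glycolysis, stood at 276 and 281 CPM in shUCHL1, 421 and 395 CPM in shHSPA8, and 393 and 485 CPM in shCON. Both shUCHL1 libraries lay below the other 4, and shHSPA8 and shCON overlapped. It fell 1.58-fold in shUCHL1 against shCON (log2 fold change -0.66, SE 0.11, edgeR adjusted p = 0.00936) and stood 1.47-fold lower in shUCHL1 than in shHSPA8 (a log2 fold change of -0.55, SE 0.11, edgeR adjusted p = 0.0199). The calls were lost against shCON without either shUCHL1 library (edgeR adjusted p 0.0844 to 0.0977) and between the knockdown lines without either shUCHL1 library or either shHSPA8 library (edgeR adjusted p 0.0593 to 0.178). PGD, which makes NADPH in the pentose phosphate pathway, stood at 151 and 174 CPM in shUCHL1, 195 and 186 CPM in shHSPA8, and 153 and 161 CPM in shCON. ME1, cytosolic malic enzyme, stood at 133 and 131 CPM in shUCHL1, 108 and 115 CPM in shHSPA8, and 139 and 133 CPM in shCON. PGD was highest in shHSPA8 and ME1 lowest there, and neither was called, with edgeR adjusted p-values in shHSPA8 against shCON of 0.11 for PGD and 0.0714 for ME1.

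NQO1 (gene ID 102173771), which reduces quinones and is a classic NRF2 target, did not follow HMOX1. It stood at 46.7 and 50.2 CPM in shUCHL1, 29.8 and 30.0 CPM in shHSPA8, and 43.1 and 42 CPM in shCON. The lines did not overlap, with shUCHL1 highest and shHSPA8 lowest. NQO1 fell 1.42-fold in shHSPA8 (log2 fold change -0.51, SE 0.10, edgeR adjusted p = 0.0138), stood 1.62-fold higher in shUCHL1 than in shHSPA8 (a log2 fold change of 0.69, SE 0.10, edgeR adjusted p = 0.00532). Against shCON it was not called in shUCHL1 (log2 fold change 0.19, SE 0.09, edgeR adjusted p = 0.243). OSGIN1, a growth inhibitor induced by oxidative stress, was also lowest in shHSPA8, at 13.3 and 12.2 CPM in shUCHL1, 8.66 and 8.02 CPM in shHSPA8, and 11 and 15 CPM in shCON, and missed the threshold in shHSPA8 against shCON (log2 fold change -0.64, SE 0.18, edgeR adjusted p = 0.0554) and between the knockdown lines (a log2 fold change of 0.61, SE 0.18, edgeR adjusted p = 0.0632). The NQO1 calls were lost in shHSPA8 against shCON without either shUCHL1 library or either shHSPA8 library (edgeR adjusted p 0.0524 to 0.0853) and between the knockdown lines without either shUCHL1 library (edgeR adjusted p 0.06 to 0.0856).

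EPHX1, which opens epoxides to diols, stood at 1.77 and 2.52 CPM in shUCHL1, 2.21 and 2.26 CPM in shHSPA8, and 1.14 and 0.979 CPM in shCON, above shCON in all 4 knockdown libraries. Its rise was 2.02-fold in shUCHL1 (log2 fold change 1.01, SE 0.28, edgeR adjusted p = 0.0495) and 2.11-fold in shHSPA8 (log2 fold change 1.07, SE 0.28, edgeR adjusted p = 0.0433). It had 71, 70 and 34 counts over the libraries of shUCHL1, shHSPA8 and shCON. Both calls were lost with DESeq2 and without any 1 library, in shUCHL1 at edgeR adjusted p-values of 0.0774 to 0.34 and in shHSPA8 at 0.0697 to 0.157. ABCC1, a pump that exports glutathione conjugates, was not called in any comparison, at 60.5 and 59.2 CPM in shUCHL1, 67.4 and 72.3 CPM in shHSPA8, and 66.6 and 67.2 CPM in shCON.

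**Figure D3:**
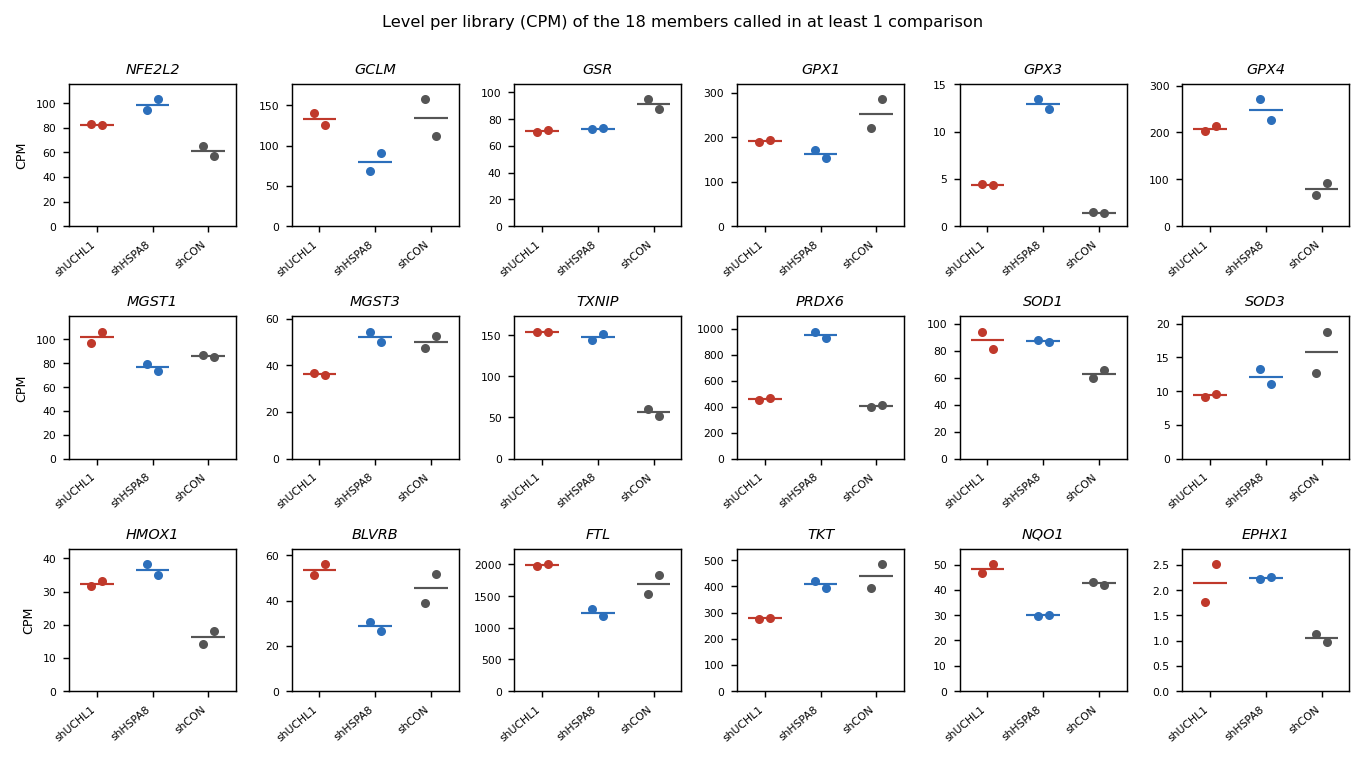
CPM in each library (points) and the mean of each line (bars) for the 18 members called in at least 1 comparison, in shUCHL1, shHSPA8 and shCON, with each vertical axis starting at 0. NFE2L2, GPX3, GPX4, TXNIP, SOD1, HMOX1 and EPHX1 are above shCON in both knockdown lines, PRDX6 is raised in shHSPA8, and GCLM, BLVRB, FTL and NQO1 are lowest in shHSPA8.

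Between the knockdown lines, the difference was thus tested directly for each member. GCLM, MGST1, BLVRB, FTL and NQO1 were higher in shUCHL1 than in shHSPA8, by 1.33-fold to 1.88-fold. GPX3, MGST3, PRDX6 and TKT were lower in shUCHL1 than in shHSPA8, by 1.44-fold to 2.93-fold. GCLM takes part in glutathione synthesis, BLVRB and NQO1 are reductases that use NADPH or NADH, FTL stores iron and MGST1 conjugates glutathione. On the lower side stand a secreted and a glutathione-dependent cytosolic peroxidase, a transferase and a pentose phosphate enzyme. Against shCON, the calls of members in the processes that NRF2 switches on were not on 1 side. HMOX1 was called higher in both knockdown lines, NQO1 and GCLM were called lower in shHSPA8, and TXNRD1, SRXN1, PRDX1 and ABCC1 were called in neither. FTL and BLVRB were also called lower in shHSPA8, GSR and TKT lower in shUCHL1, and EPHX1 higher in both. GCLC, FTH1, ME1, PGD and OSGIN1 were called in neither. In a fit to the lines compared alone, the calls against shCON of NQO1, GCLM, FTL, BLVRB, GSR and EPHX1 were lost. Those of HMOX1 and TKT were kept.

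Leaving out each library in turn, or changing the scaling, filter, tool or spread model, ended many of the calls. In shUCHL1 against shCON, 3 of 11 calls were kept under every other setting tried, those of GPX3, GPX4 and TXNIP. In shHSPA8 against shCON, 6 of 13 were kept, those of NFE2L2, GPX3, GPX4, TXNIP, PRDX6 and HMOX1. Between the knockdown lines, 2 of 9 were kept, those of GPX3 and PRDX6. All calls kept in every alternative against shCON were rises, and none of the 4 falls in shUCHL1 or the 5 in shHSPA8 was kept in all of them. No called member changed direction under an alternative. How many calls over all genes were kept in every alternative was not counted, so the kept counts do not set the members apart. Calls over all genes also fell in every comparison without either shUCHL1 library. A replicate block lowered them from 1987 to 1230 in shUCHL1, 1859 to 1131 in shHSPA8 and 1843 to 923 between the knockdown lines. Fitting only the lines compared gave 1647 in shUCHL1, 1104 in shHSPA8 and a higher 3116 between the knockdown lines. Among the settings that keep all libraries of the lines compared, a fit to those lines alone ended the calls of NFE2L2, GSR, SOD3 and EPHX1 in shUCHL1 and of GCLM, GPX1, SOD1, BLVRB, FTL, NQO1 and EPHX1 in shHSPA8. Weights per line ended those of SOD1 and EPHX1 in shUCHL1 and of GCLM, SOD1, BLVRB and EPHX1 in shHSPA8. Scaling by library size alone ended those of GSR, MGST3 and SOD3 in shUCHL1, and testing with no low-count filter ended those of SOD3 and EPHX1 in shUCHL1, EPHX1 in shHSPA8 and GCLM between the knockdown lines.

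**Figure D4:**
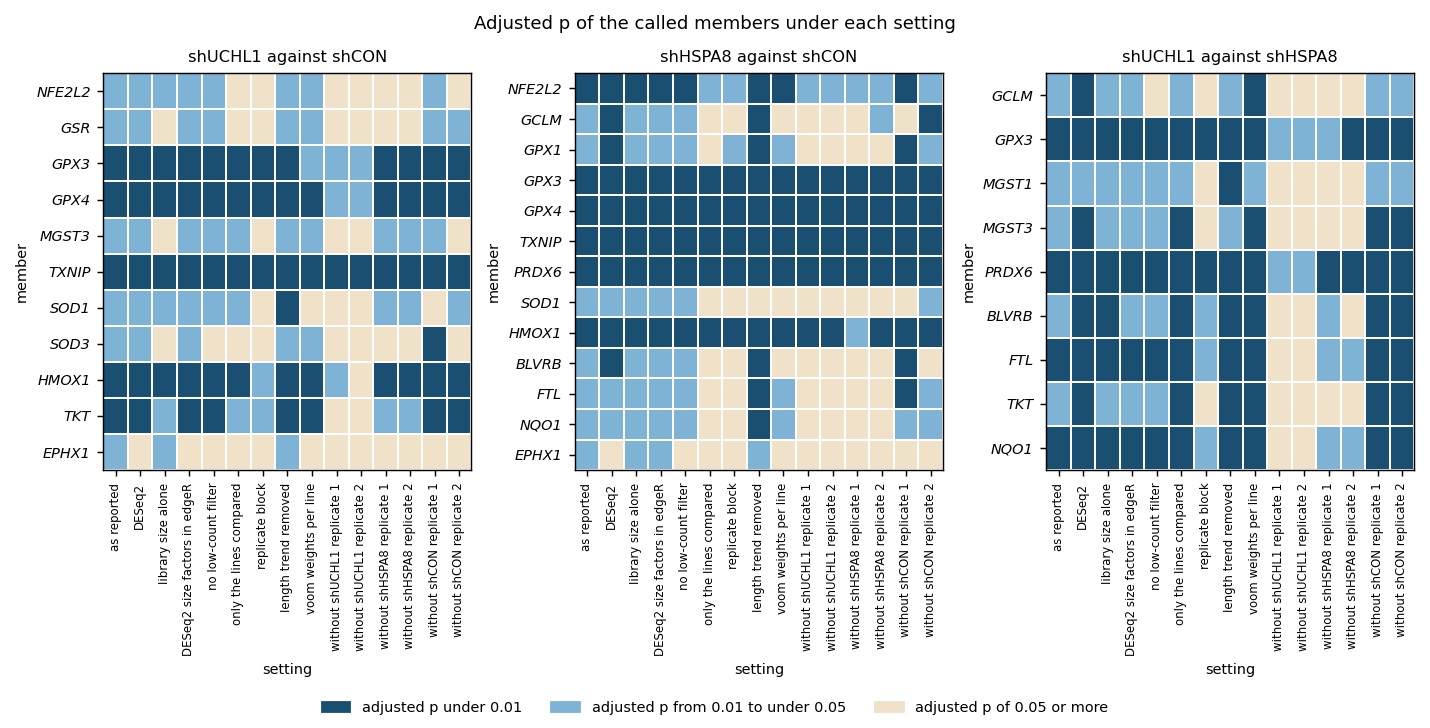
Adjusted p of each called member (rows) as reported and under each alternative (columns), for the 3 comparisons, in classes from dark (under 0.01) to pale (0.05 or more). GPX3, GPX4 and TXNIP in shUCHL1 and the rises of NFE2L2, GPX3, GPX4, TXNIP, PRDX6 and HMOX1 in shHSPA8 have no pale cell, and neither do GPX3 and PRDX6 between the knockdown lines.

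Short and long transcripts moved apart between replicates, and the tested members had a shorter median length, 1.35 kb, than all tested genes with a length, 2.48 kb, although ABCC1 at 5.83 kb and GCLM at 4.16 kb were longer. Across 11595 genes the log2 difference of replicate 2 from replicate 1 correlated with log2 length at Spearman's rho of -0.279 in shUCHL1, 0.5 in shHSPA8 and -0.5 in shCON, a description across genes that are not independent. In shCON, 23 of 36 members were higher in replicate 2 than in replicate 1, with a median difference of 0.0968 on the log2 scale, where the median of all genes was 0.00346. With this length trend taken out of each library, members called higher and lower were 14 and 5 in shUCHL1, 9 and 9 in shHSPA8, and 10 and 5 between the knockdown lines. Over all genes calls also rose, from 1987 to 2393 in shUCHL1, 1859 to 2469 in shHSPA8 and 1843 to 2662 between the knockdown lines. Among the members, the call of SOD1 in shHSPA8 was lost (edgeR adjusted p = 0.057). Calls gained in shUCHL1 were MGST1, TXN, PRDX1, PRDX6, BLVRB, FTH1 and FTL as higher and GPX1 as lower. In shHSPA8 they were TXN and PGD as higher and GSR, CAT, ME1 and OSGIN1 as lower. Between the knockdown lines they were GCLC, GPX1, PRDX1, FTH1 and OSGIN1 as higher and GPX7 as lower in shUCHL1.

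A wider list of 132 other genes of these pathways, 103 of them tested, gave the surroundings of the members. In shUCHL1 against shCON 17 rose and 9 fell, or 25.2% of those tested, with a median log2 fold change of 0.0334. In shHSPA8 against shCON 13 rose and 10 fell, or 22.3%, with a median of 0.047. Between the knockdown lines 10 were higher and 11 lower in shUCHL1 than in shHSPA8, or 20.4%, with a median of -0.0309. For all tested genes the called shares were 15.7%, 14.7% and 14.6% in the same order of comparisons.

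Of 14 tested genes of glutathione synthesis, uptake and breakdown on the wider list, 5 rose and 1 fell in shUCHL1, and 2 rose and 2 fell in shHSPA8. SLC7A11, the cystine importer that feeds glutathione synthesis, stood at 17.4 and 12.9 CPM in shUCHL1, 4.17 and 10.1 CPM in shHSPA8, and 4.56 and 2.57 CPM in shCON. Its shUCHL1 libraries were above all others, and it rose 4.25-fold there against shCON (log2 fold change 2.09, SE 0.42, edgeR adjusted p = 0.0178), with no call in shHSPA8 against shCON (log2 fold change 1.00, SE 0.45, edgeR adjusted p = 0.194) or between the knockdown lines (a log2 fold change of 1.09, SE 0.39, edgeR adjusted p = 0.107). CHAC1, which breaks glutathione down in the cytosol and is a target of ATF4, stood at 9.47 and 10.3 CPM in shUCHL1, 4.43 and 2.97 CPM in shHSPA8, and 3.48 and 3.24 CPM in shCON. It rose 2.94-fold in shUCHL1 against shCON (log2 fold change 1.55, SE 0.20, edgeR adjusted p = 0.00344) and was higher in shUCHL1 than in shHSPA8 (a log2 fold change of 1.42, edgeR adjusted p = 0.00587). GSS, the second enzyme of glutathione synthesis, stood at 18.8 and 18.6 CPM in shUCHL1, 15.4 and 15.3 CPM in shHSPA8, and 26.3 and 26.7 CPM in shCON, below shCON in all 4 knockdown libraries. It fell in shUCHL1 (log2 fold change -0.51, edgeR adjusted p = 0.018) and in shHSPA8 (log2 fold change -0.79, SE 0.10, edgeR adjusted p = 0.00325). The SLC7A11 call was lost without either shUCHL1 library or shCON replicate 2 (edgeR adjusted p 0.0518 to 0.103). The CHAC1 call between the knockdown lines was lost without either shUCHL1 library (edgeR adjusted p 0.0501 to 0.0601), and the GSS call in shUCHL1 without either shUCHL1 library (edgeR adjusted p 0.167 to 0.168).

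SESN2, a stress-induced sestrin that restrains mTORC1, stood at 30.0 and 31.1 CPM in shUCHL1, 15.2 and 13.4 CPM in shHSPA8, and 10.1 and 14 CPM in shCON, with both shUCHL1 libraries above the other 4. It rose 2.53-fold in shUCHL1 against shCON (log2 fold change 1.34, SE 0.16, edgeR adjusted p = 0.00266). Genes that fell in shUCHL1 against shCON included DUOX1, an oxidase that makes hydrogen peroxide, at 17.2 and 16.1 CPM in shUCHL1, 23.5 and 21.3 CPM in shHSPA8, and 29.9 and 32.7 CPM in shCON (log2 fold change -0.91, SE 0.12, edgeR adjusted p = 0.00306), and it was also called lower in shHSPA8 (log2 fold change -0.48, SE 0.11, edgeR adjusted p = 0.0331). TXNRD3, a thioredoxin reductase known from mouse testis, stood at 5.25 and 5.76 CPM in shUCHL1, 13.3 and 12.5 CPM in shHSPA8, and 9.18 and 9.67 CPM in shCON, lowest in shUCHL1 (log2 fold change -0.78, SE 0.14, edgeR adjusted p = 0.0113). PARK7, a redox-sensitive chaperone, stood at 83.8 and 88 CPM in shUCHL1, 107 and 89.5 CPM in shHSPA8, and 115 and 129.7 CPM in shCON. It also fell in shUCHL1 (log2 fold change -0.51, SE 0.12, edgeR adjusted p = 0.0285). The DUOX1 call in shHSPA8 was lost without either shUCHL1 library, either shHSPA8 library or shCON replicate 2 (edgeR adjusted p 0.0565 to 0.177). The TXNRD3 call was lost without either shUCHL1 library (edgeR adjusted p 0.0832 to 0.129). The PARK7 call was lost without either shUCHL1 library or shCON replicate 2 (edgeR adjusted p 0.0675 to 0.22) and with scaling by library size alone. PXDN, a peroxidase that crosslinks collagen IV, stood at 0.0611 and 0.24 CPM in shUCHL1, 19.3 and 19 CPM in shHSPA8, and 8.74 and 12.2 CPM in shCON. Its 2 shUCHL1 libraries held 5 counts between them, against 599 in shHSPA8 and 337 in shCON.

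SOD2, the mitochondrial superoxide dismutase, had the largest rise among tested genes of the wider list in shHSPA8. It stood at 187 and 193 CPM in shUCHL1, 409 and 428 CPM in shHSPA8, and 94.7 and 94.6 CPM in shCON, in 3 separate levels with shHSPA8 highest and shCON lowest. SOD2 rose 2.01-fold in the shUCHL1 line (log2 fold change 1.00, SE 0.08, edgeR adjusted p = 0.000474) and 4.42-fold in shHSPA8 (log2 fold change 2.15, SE 0.08, edgeR adjusted p = 2.29e-05), and it was lower in shUCHL1 than in shHSPA8 (a log2 fold change of -1.14, SE 0.08, edgeR adjusted p = 0.000416). The zinc and iron importer SLC39A14 had the same order, at 281 and 272 CPM in shUCHL1, 400.3 and 455 CPM in shHSPA8, and 145 and 132 CPM in shCON, with rises in shUCHL1 (log2 fold change 1.00, SE 0.10, edgeR adjusted p = 0.00106) and shHSPA8 (log2 fold change 1.62, SE 0.10, edgeR adjusted p = 0.000132). PTGES, a glutathione-dependent prostaglandin E synthase, stood at 53.2 and 57 CPM in shUCHL1, 69 and 63.5 CPM in shHSPA8, and 21.1 and 30.5 CPM in shCON. It also rose in both (log2 fold change 1.09, edgeR adjusted p = 0.00663 in shUCHL1, and log2 fold change 1.36, edgeR adjusted p = 0.00243 in shHSPA8), the call in shUCHL1 being lost without shUCHL1 replicate 2 (edgeR adjusted p 0.0586). ME3, mitochondrial malic enzyme, stood at 6.9 and 7.19 CPM in shUCHL1, 9.04 and 8.66 CPM in shHSPA8, and 3.93 and 4.35 CPM in shCON. It rose in shUCHL1 (log2 fold change 0.77, edgeR adjusted p = 0.0155) and in shHSPA8 (log2 fold change 1.10, SE 0.15, edgeR adjusted p = 0.00332), the call in shUCHL1 being lost without either shUCHL1 library (edgeR adjusted p 0.121 to 0.141).

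On the lower side in shHSPA8, SELENOW, a small redox selenoprotein, stood at 116 and 116 CPM in shUCHL1, 36.5 and 32 CPM in shHSPA8, and 118 and 163 CPM in shCON. Both shHSPA8 libraries were far below the other 4, and it fell 4.11-fold in shHSPA8 against shCON (log2 fold change -2.04, SE 0.16, edgeR adjusted p = 0.00035) and was higher in shUCHL1 than in shHSPA8 (a log2 fold change of 1.76, SE 0.16, edgeR adjusted p = 0.0013). ABCC3, an exporter of glutathione and glucuronide conjugates, stood at 36.3 and 35.9 CPM in shUCHL1, 15.9 and 15.8 CPM in shHSPA8, and 36.5 and 41.3 CPM in shCON. PIR, an NRF2 target, stood at 6.78 and 7.49 CPM in shUCHL1, 3.48 and 3.17 CPM in shHSPA8, and 6.58 and 6.79 CPM in shCON, and both were lowest in shHSPA8. ABCC3 fell 2.46-fold (log2 fold change -1.30, SE 0.11, edgeR adjusted p = 0.000456) and PIR fell 2.01-fold (log2 fold change -1.01, SE 0.16, edgeR adjusted p = 0.007), the PIR call being lost without shHSPA8 replicate 2 (edgeR adjusted p 0.0529).

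**Figure D5:**
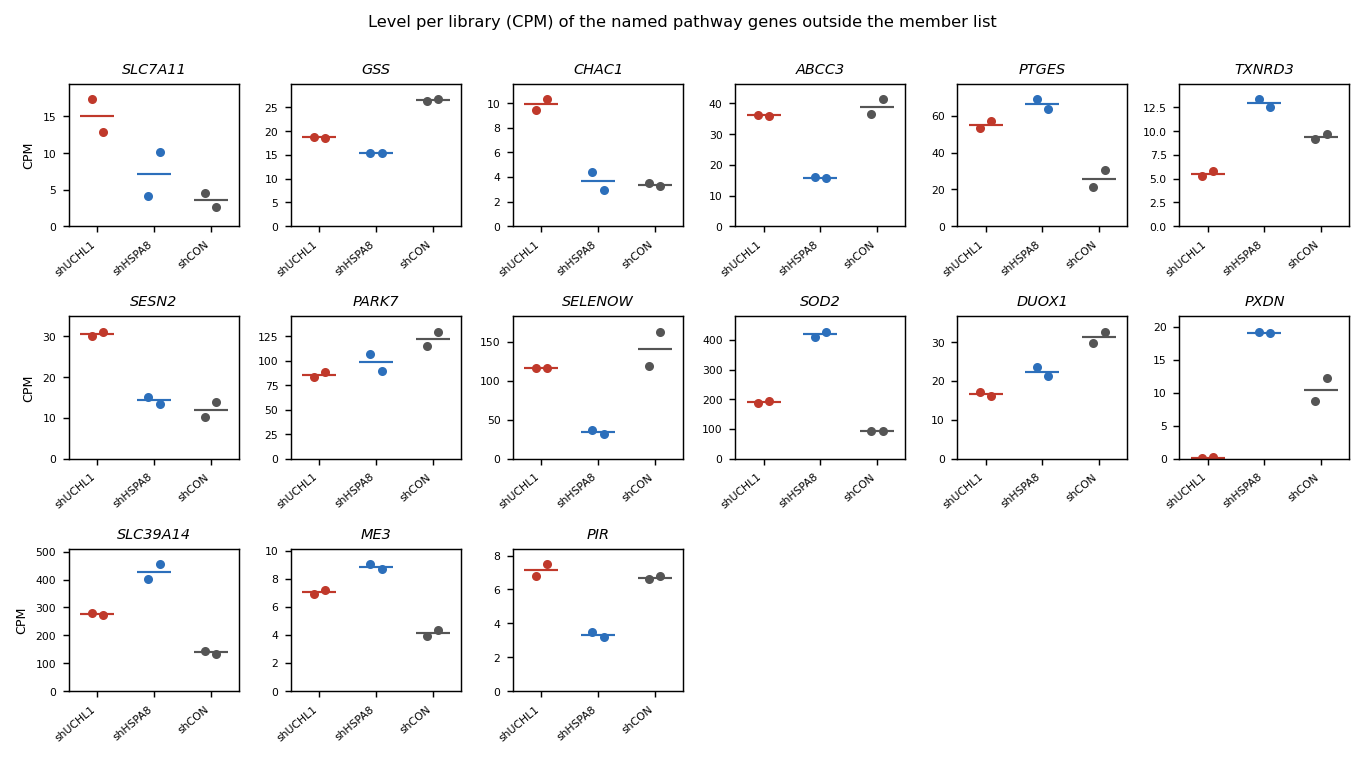
CPM in each library (points) and the mean of each line (bars) for 15 named genes of the wider list, in shUCHL1, shHSPA8 and shCON, with each vertical axis starting at 0. SLC7A11, CHAC1 and SESN2 are highest in shUCHL1, SOD2, SLC39A14 and PTGES are highest in shHSPA8, and SELENOW, ABCC3 and PIR are lowest in shHSPA8.

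The authors' deposited table gives its own ratio and p-value for each pair of lines. Its ratio had the same sign for all 11 members called in shUCHL1 against shCON, all 13 in shHSPA8 against shCON and all 9 between the knockdown lines, where the sign was turned because that column runs shHSPA8 over shUCHL1. In the authors' deposited table the p-value was under 0.05 for 10, 12 and 9 of these members. Over all 36 tested members it was under 0.05 for 12, 16 and 19. The headers do not say whether it is adjusted, so its threshold may differ from the one used here. The authors' values come from the same libraries and are no independent check.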

How the data were processed

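Messenger RNA libraries of 6 samples, 2 per line, were sequenced by the authors, and groups and replicate numbers follow the titles. The submitters' processing notes name Trimmomatic 0.36. The sources used here do not give the aligner, counter, genome build or strandedness.

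The authors deposited 1 table of 33229 entries, of which 16599 carry values. Per the file headers, it gives for each library a read count and an FPKM value made by the authors. Between 1014 and 1117 genes per library have a decimal part, so the deposited counts were treated as estimated counts and rounded to whole numbers. The authors also deposited a log2 ratio and a p-value for each pair of lines, by a test that is not stated. Total counts of 15710532 to 16417274 per library are the only measure of depth.

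The members, the wider list and the tests were chosen with earlier results of these data known. Genes were matched by symbol, and 4 genes of the wider list by an older symbol. The edgeR quasi-likelihood test (edgeR 4.0.16, R 4.3.3) was run on all 6 libraries after filterByExpr and TMM scaling (factors 0.9665 to 1.042), over 12665 genes and 3 comparisons, with line as the only term and Benjamini-Hochberg adjustment per comparison. The threshold was 0.05, and the SE is the size of the log2 fold change divided by the square root of F. CPM use the TMM factors.

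All members are accounted for, with values in every library for those called, and for NFE2L2, KEAP1, HMOX1, NQO1, GCLM and TXNRD1. From the wider list, the 4 largest called rises and falls per comparison with shCON at a mean of at least 5 CPM were named, with SLC7A11. A gene that the rule names is not reported here. In a simulation of shUCHL1 against shCON with 12665 genes, edgeR called 37 of 67 genes made to differ 1.5-fold, 56 of 67 at 2-fold and 61 of 66 at 4-fold, as well as 15 of 12465 unchanged genes. The simulated lines shared the same spread and had no length trend, unlike the real libraries, so these rates need not hold for them. Alternatives were DESeq2 1.42.0, other scalings, no low-count filter, fits to the lines compared, a replicate block, removal of a length trend, voom weights per line (limma 3.58.1) and fits without each library.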

Additional observations from a re-analysis of the deposited data

How the results depend on the processing

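No called member changed sign under any of the 14 other settings, and with 2 libraries per line most calls under 2-fold were lost without at least 1 library. The cause of the differences below was not tested, except that fits without a library have fewer samples.

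Fitting only the lines compared gave 1104 genes, 0 members lower and 15 wider-list genes in shHSPA8 against shCON, with 2 members lower in shUCHL1 against shCON, and 3116 genes, 8 members higher and 32 wider-list genes between the knockdown lines. The 0 members lower in shHSPA8 compare with 5 by edgeR with all lines and 5 by DESeq2. With voom weights per line these were 1132 genes, 3 members lower and 15 wider-list genes in shHSPA8 against shCON, and 3456 genes, 9 members higher, 7 lower and 36 wider-list genes between the knockdown lines. Scaling by library size alone moved the median of all genes to 0.0876 in shUCHL1 against shCON and 0.119 between the knockdown lines, and that of the members to 0.116 and 0.0888. It left 1 member lower in shUCHL1 against shCON and made 9 higher between the knockdown lines. Genes called higher were then 1368 of 2009 (1082 of 1987 with TMM) in shUCHL1 against shCON and 1339 of 2079 (785 of 1843 with TMM) between the knockdown lines. Removing the length trend gave 14 members higher in shUCHL1, 9 lower in shHSPA8, and 10 higher with 33 wider-list genes between the knockdown lines. Genes called over all were then 2393, 2469 and 2662 in the same order of comparisons.

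The labels do not tie replicate numbers across lines, and whether samples share a structure along them is not settled by these data. Correlations of same-numbered deviations were 0.405 for shUCHL1 and shCON, -0.76 for shHSPA8 and shCON and -0.411 for shUCHL1 and shHSPA8. With a replicate block, shUCHL1 against shCON gave 1230 genes, 4 members higher, 1 lower and 17 wider-list genes. The block gave 1131 genes, 1 member lower and 15 wider-list genes in shHSPA8 against shCON, and 923 genes, 3 members higher and 2 lower between the knockdown lines. It ended the calls of NFE2L2, GSR, MGST3, SOD1, SOD3 and EPHX1 in shUCHL1 against shCON, of GCLM, SOD1, BLVRB, FTL, NQO1 and EPHX1 in shHSPA8 against shCON, and of GCLM, MGST1, MGST3 and TKT between the knockdown lines. A block with the shHSPA8 numbers crossed, chosen after seeing the data, gave 3883 genes, 10 members lower and 46 wider-list genes in shHSPA8 against shCON.

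Without each library in turn, shUCHL1 against shCON gave 528 to 2615 genes, 3 to 7 members higher, 0 to 7 lower, 7 to 31 wider-list genes and a member median of -0.000544 to 0.119, lowest in calls without either shUCHL1 library. In shHSPA8 against shCON these were 920 to 2416 genes, 6 to 11 members higher, 0 to 7 lower, 11 to 29 wider-list genes and a median of -0.0732 to 0.0758. Between the knockdown lines they were 257 to 3083 genes, 0 to 8 members higher, 2 to 6 lower, 6 to 32 wider-list genes and a median of -0.0446 to 0.0197. Where these counts are 0, edgeR with all libraries gave 16, 20 and 17 members of either direction at an unadjusted p under 0.05 in the 3 comparisons, and DESeq2 called 4 members lower in shUCHL1, 5 lower in shHSPA8 and 5 higher in shUCHL1 than in shHSPA8. A line with 1 library left is assumed to vary like the others.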
